A study of Mus musculus with 4 samples.

Results

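Heat shock proteins and chaperones help other proteins to fold and keep damaged ones from clumping. The proteins of the Hsp70 family bind unfolded stretches in cycles of ATP hydrolysis that J proteins start and exchange factors end, the Hsp90 proteins take over partly folded clients such as kinases and steroid receptors, and the chaperonins enclose a client in a barrel. When unfolded protein accumulates in the cytosol, heat shock factor 1 (Hsf1) binds heat shock elements in promoters and induces a subset of these genes, while stress in the endoplasmic reticulum (ER) acts through its own sensors.

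The 10 genes described are Hspa1a, Hspa1b, Hspa8, Hsph1, Dnajb1, Hsp90aa1, Hsp90ab1, Hspa5, Hspd1 and Hspe1, taken by symbol from 24016 gene symbols, each represented by its transcript with the highest total count. All 10 were found and all 10 passed the filter on low counts. RNA was sequenced from bone marrow hematopoietic stem cells of NHD13+ transgenic and wild-type (WT) C57BL/6 mice at 4 months of age, with 2 libraries per group. The sort took cells with Sca-1, c-Kit and CD150 on their surface and without lineage markers, CD34 and Flt3. NHD13 mice carry a fusion of NUP98 with HOXD13 and are a model of myelodysplastic syndrome. In the line commonly used under that name the fusion is driven by Vav1 regulatory elements, which are active across blood cells, though the labels do not state the promoter. Whether the 2 libraries of each genotype represent different mice, or pools of mice, is not stated. Every SD and p-value therefore describes the spread among these 4 libraries, which may be technical.

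The libraries held 35025974 and 48423689 counts in NHD13 and 42664018 and 37070939 in WT, with 1 transcript per gene. The 10 heat shock genes took 1.99 and 1.83 percent of them in NHD13 and 1.28 and 1.62 percent in WT. All 10 stem cell markers listed were detected, with a summed level of 3178 and 3487 CPM (counts scaled to each library's total) in NHD13 and 4590 and 4845 CPM in WT. Markers of other cells were uneven between libraries. The 10 neutrophil markers summed to 2783 and 369.6 CPM in NHD13 libraries 1 and 2, and to 321 and 277 CPM in WT. The 9 T and NK cell markers found summed to 25.2 and 215 CPM in NHD13 and to 25.2 and 26.4 CPM in WT. Lck, Cd3e, Cd3g, Gzmb and Cd247 were highest in NHD13 library 2, while Cd3d, Gzma, Prf1 and Klrd1 were not. The 8 macrophage markers summed to 62.7 and 44.3 CPM in NHD13 and to 19.0 and 20.8 CPM in WT, most of it from Cd68 and Csf1r. Of the 7 macrophage markers tested 4 were above 0 and 3 below 0 in log2 fold change, with a median of 0.13. The 9 stroma and endothelium markers summed to 119 and 139 CPM in NHD13 and to 154 and 108 CPM in WT. Of these, Sparc had 35.6 CPM in WT library 1 and 0.602 CPM in WT library 2, and Col1a1 had 12.8 and 0.848 CPM. Col1a2, Pdgfrb, Cxcl12 and Col3a1 were also higher in WT library 1, while Kdr, Pecam1 and Cdh5 were higher in WT library 2. No listed marker of these cell types was at 0 in every library. The part of these other cells in the results below was not tested.

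The promoters of 7 of the 10 genes were found in RefSeq's table for GRCm38.p6, as windows from 250 bases before to 50 bases after an annotated start. Those of Hspa8, Hsp90aa1 and Hsp90ab1 were not used here. The windows of Hspa1a and Hspa1b, the stress-inducible Hsp70 genes, are shown first because these near-identical genes had the largest differences between the groups. Capitals mark a heat shock element, written here as either GAANNTTC or TTCNNGAA, each of which reads the same on both strands. Both windows are on the minus strand and are printed in the direction of transcription.
Hspa1a (chr17:34972107-34972406): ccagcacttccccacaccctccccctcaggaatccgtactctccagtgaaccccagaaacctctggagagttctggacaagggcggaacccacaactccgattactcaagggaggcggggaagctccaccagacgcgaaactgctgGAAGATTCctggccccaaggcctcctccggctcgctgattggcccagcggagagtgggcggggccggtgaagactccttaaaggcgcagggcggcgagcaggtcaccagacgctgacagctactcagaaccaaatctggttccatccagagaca
Hspa1b (chr17:34959189-34959488): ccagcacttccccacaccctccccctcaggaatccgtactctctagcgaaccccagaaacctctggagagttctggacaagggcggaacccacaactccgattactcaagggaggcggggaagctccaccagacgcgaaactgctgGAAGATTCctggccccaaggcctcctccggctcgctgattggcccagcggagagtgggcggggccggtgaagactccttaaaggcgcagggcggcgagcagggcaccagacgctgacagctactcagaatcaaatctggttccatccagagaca

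The windows of Hspa1a and Hspa1b differed at 4 of 300 bases, C44T, T47C, T249G and C276T, with the base of Hspa1a first and positions counted from 1 at the 5′ end. Each held the same heat shock element at bases 147 to 154. The window of Hsph1, which encodes an Hsp110 exchange factor of Hsp70, held 3 elements, of which the last 2 overlap.
Hsph1 (chr5:149636287-149636586, minus strand): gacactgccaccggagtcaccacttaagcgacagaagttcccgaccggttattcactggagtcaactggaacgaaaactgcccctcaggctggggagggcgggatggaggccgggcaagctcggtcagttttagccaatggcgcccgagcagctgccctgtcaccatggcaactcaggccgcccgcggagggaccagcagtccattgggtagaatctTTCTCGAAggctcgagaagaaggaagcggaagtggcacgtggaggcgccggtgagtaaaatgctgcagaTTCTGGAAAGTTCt

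Hspd1 and Hspe1, which encode the mitochondrial chaperonin and its lid, are neighbours that are transcribed away from each other. The window of Hspe1 shared 285 bases with that of the second annotated start of Hspd1, on the opposite strand. It held 3 overlapping heat shock elements.
Hspe1 (chr1:55087898-55088197, plus strand): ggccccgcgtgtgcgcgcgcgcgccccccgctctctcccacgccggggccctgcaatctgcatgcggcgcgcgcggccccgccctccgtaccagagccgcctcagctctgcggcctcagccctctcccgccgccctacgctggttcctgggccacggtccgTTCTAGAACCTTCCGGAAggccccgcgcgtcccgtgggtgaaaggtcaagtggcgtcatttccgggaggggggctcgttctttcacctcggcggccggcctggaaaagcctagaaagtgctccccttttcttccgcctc

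Hspa5 encodes BiP, the Hsp70 of the ER. Its window held no heat shock element of this form and 1 ER stress element (CCAAT and CCACG with 9 bases between them), in capitals.
Hspa5 (chr2:34771840-34772139, plus strand): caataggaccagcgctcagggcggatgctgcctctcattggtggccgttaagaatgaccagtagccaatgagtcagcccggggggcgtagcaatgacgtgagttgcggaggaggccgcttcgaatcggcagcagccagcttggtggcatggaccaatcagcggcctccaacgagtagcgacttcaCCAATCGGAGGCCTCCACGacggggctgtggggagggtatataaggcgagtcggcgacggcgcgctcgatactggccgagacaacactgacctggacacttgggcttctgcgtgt

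A heat shock element of either form was found in 15.1 percent of the 32851 promoter windows of the table, and 2 or more in 1.96 percent. Elements of 3 units in a row, GAANNTTCNNGAA or TTCNNGAANNTTC, a form chosen after the sequences were seen, were present in 0.603 percent, among them the windows of Hsph1 and Hspe1 and that of the second start of Hspd1. The ER stress element, searched on both strands, was in 0.119 percent, and its CCACG end, which lies within the longer motif, in 32.8 percent. Neither window of Dnajb1 held an exact match to a heat shock element or to the ER stress element, and inexact matches were not searched. A match is a run of letters and not a measured binding site.

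**Figure D1:**
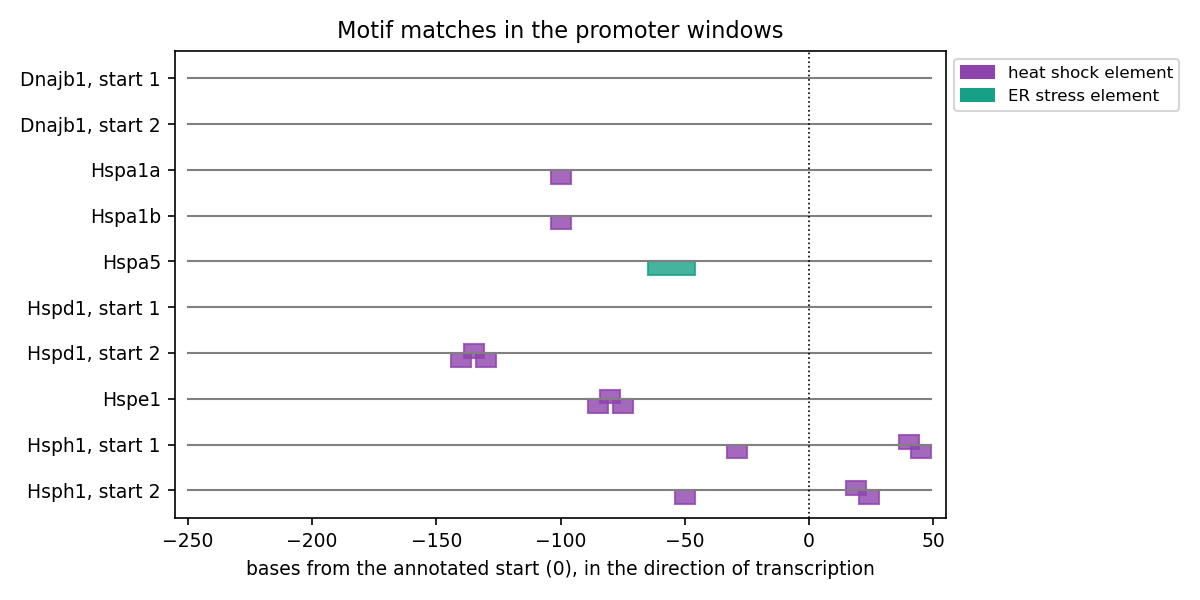
Positions of exact matches to heat shock elements (purple) and ER stress elements (green) in each promoter window. The x axis gives bases from the annotated start, and overlapping matches are drawn at 2 heights. Hspa1a and Hspa1b carry 1 heat shock element at the same place, Hsph1, Hspe1 and the second start of Hspd1 carry 3, and Hspa5 carries an ER stress element only.

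The comparison asked whether the transgene's presence goes with another level of these genes in sorted stem cells. The values are counts deposited by the authors, scaled here to CPM with TMM-normalised library totals and tested with edgeR's quasi-likelihood test over all 14853 genes that passed its filter. A gene was called at a Benjamini-Hochberg adjusted p under 0.05. In a sorted population, fewer cells that express a gene and less RNA per cell cannot be told apart.

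Hspa1a rose in NHD13 cells, and was the 1 gene of the 10 that edgeR called. Of all genes tested, 4.28 percent were called, 2.07 percent higher and 2.22 percent lower. DESeq2, whose calls are also given below, called 2604 of the 14853 genes, against 636 by edgeR. None of the 10 was called lower by edgeR, DESeq2 or limma-voom, and 0 were lower at an unadjusted p under 0.05, against 13.9 percent of all genes. All 10 log2 fold changes were above 0, as were 50.1 percent of all genes tested. Higher values at an unadjusted p under 0.05 were found for 7 of 10 genes, against 12.9 percent of all genes. The 12.9 percent is from the main fit, and no such share is given for the other fits. The count of 7 became 3 with the replicate number as a block and 4 with transcripts summed per gene. Leaving out a library gave 2 without NHD13 library 1, 5 without NHD13 library 2, 3 without WT library 1 and 8 without WT library 2. In 9 of 10 both NHD13 libraries lay above both WT libraries, the case in 30.1 percent of all genes, and the exception was Hspa5. The reverse order held for 0 of 10 and for 30.3 percent of all genes. The median log2 fold change of the 10 was 0.51, beside 0.0013 for all genes tested. The 10 genes were chosen with earlier results of these data known, so these shares are descriptive and not a test of the set. Hspa1a and Hspa1b, whose reads can be told apart only in part, count as 2 of the 10.

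**Figure D2:**
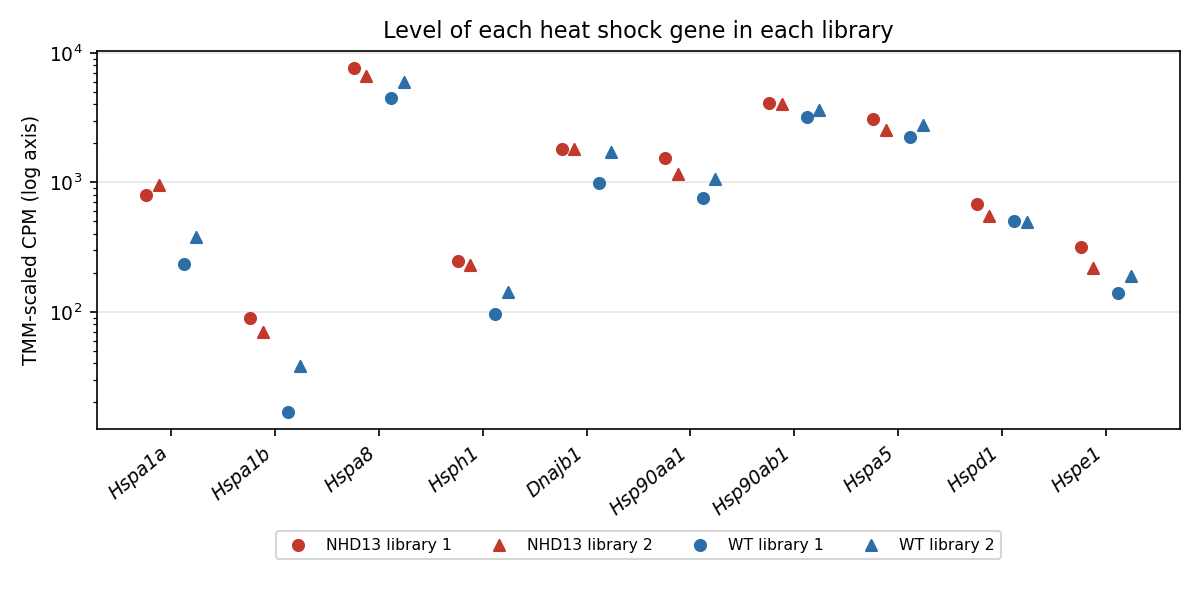
TMM-scaled CPM on a log axis for each of the 10 genes, with 1 point per library (NHD13 red, WT blue, circles library 1 and triangles library 2). In 9 of 10 genes the red points lie above the blue ones, and for Hspa5 they interleave.

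The inducible Hsp70 genes had the largest differences. Hspa1a had 792 and 951 CPM in NHD13 libraries 1 and 2, against 233 and 377 CPM in WT libraries 1 and 2. The groups did not overlap, and the gap between them was wider than the gap between the libraries of either group. The log2 fold change was 1.52 ± 0.25 (SE), a 2.86-fold higher level, with an edgeR adjusted p of 0.0480. The call was close to its threshold. It was lost in 10 of 15 alternative analyses, including each that left out 1 library (adjusted p 0.121 to 0.181), and the adjusted p ranged from 7.46e-09 with DESeq2 to 0.181. The log2 fold change itself lay between 1.20 and 1.90 in all 15.

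Hspa1b had 89.5 and 70.0 CPM in NHD13, against 16.9 and 38.5 CPM in WT. Both NHD13 values were higher than both WT values, and WT library 2 was 2.27 times WT library 1. Its log2 fold change of 1.53 ± 0.41 was as large as that of Hspa1a, with a wider error, and it was not called (edgeR adjusted p 0.102). DESeq2 called it, with an adjusted p of 0.000676.

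Reads of Hspa1a and Hspa1b can be assigned to either gene only in part. Their coding sequences, taken as the longest open reading frame of each GENCODE M21 transcript, were 1926 and 1929 bases long and 99.4 percent identical, with 8 mismatches and 3 bases of Hspa1b without a partner. Of all windows of 75 bases, the read length given in the labels, 52.7 percent of those in the Hspa1a transcript were also present in Hspa1b. How the authors' counting treated such reads is not given in the sources used here. The deposited counts were 27226 and 46618 for Hspa1a and 3075 and 3431 for Hspa1b in NHD13, against 10135 and 13770 for Hspa1a and 737 and 1408 for Hspa1b in WT. Hspa1b thus had 11.3 and 7.36 percent as many counts as Hspa1a in NHD13 and 7.27 and 10.2 percent in WT, ranges that overlap.

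Taken as 1 feature, Hspa1a and Hspa1b together were at 882 and 1021 CPM in NHD13, against 249.97 and 415 CPM in WT. The log2 fold change of the sum was 1.52, and its edgeR adjusted p of 0.0502 lay just outside the threshold. The sum was called by DESeq2 (adjusted p 1.44e-08), by limma-voom (0.0463) and when genes had to reach 1 CPM in each library of either genotype (0.0361). Hspa1l, the testis-type Hsp70 gene that neighbours Hspa1a on chromosome 17, had 2.71 and 2.14 CPM in NHD13 and 0.874 and 1.45 CPM in WT (log2 fold change 1.06 ± 0.46, adjusted p 0.223 by edgeR). It shared 5.88 percent of the Hspa1a windows.

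Hspa8 encodes Hsc70, the Hsp70 that cells make without stress. It had 7637 and 6585 CPM in NHD13, against 4469 and 5993 CPM in WT. The groups did not overlap, but WT library 2 lay nearer to NHD13 library 2 than to WT library 1. The log2 fold change was 0.44 ± 0.17 (edgeR adjusted p 0.177). Of the windows of 75 bases in its transcript 68.6 percent also occur in transcripts of 11 other GENCODE genes, so its counts may hold reads of copies, and how such reads were counted is not given.

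Relative to Hspa8 within the same library, a ratio that no scaling factor can move, Hspa1a was higher in NHD13. Hspa1a had 10.4 and 14.4 percent as many counts as Hspa8 in NHD13, against 5.21 and 6.29 percent in WT, a difference of 1.10 on the log2 scale with no overlap. With 2 libraries per group an exact two-sided permutation test cannot go below a p of 0.333, so ratios are given as values.

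The partners of Hsp70 differed among themselves. Hsph1, the Hsp110 gene, had 246 and 229 CPM in NHD13, against 95.6 and 142 CPM in WT. The NHD13 libraries were close to each other and above both WT libraries, and the log2 fold change was 0.996 ± 0.20, about 2-fold (1.99), with an edgeR adjusted p of 0.0662. DESeq2 called it (5.91e-05), and limma-voom did not (0.0608). Hsph1 had 3.21 and 3.47 percent as many counts as Hspa8 in NHD13 and 2.14 and 2.37 percent in WT, without overlap.

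Dnajb1 encodes the J protein that delivers clients to inducible Hsp70. It had 1812 and 1803 CPM in NHD13, against 984 and 1710 CPM in WT. WT library 2 stood close to the NHD13 libraries and WT library 1 stood apart. The log2 fold change of 0.42 ± 0.26 (edgeR adjusted p 0.362) became 0.07 without WT library 1 and 0.88 without WT library 2. Dnajb1 had 229 and 190 percent as many counts as Hspa1a in NHD13 and 422 and 454 percent in WT, without overlap, while its ratio to Hspa8 overlapped.

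**Figure D3:**
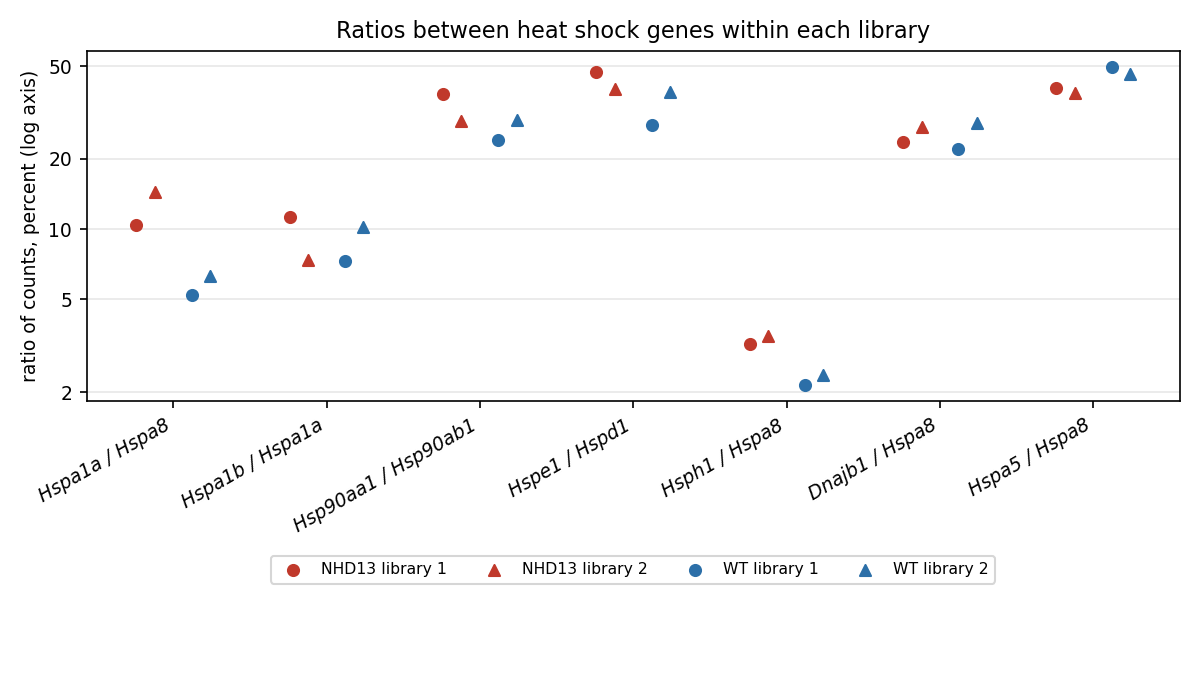
Counts of one heat shock gene as a percentage of those of another in the same library, on a log axis, with NHD13 red and WT blue. Hspa1a and Hsph1 over Hspa8 are higher in NHD13 (10.4 and 14.4 against 5.21 and 6.29 percent for Hspa1a), Hspa5 over Hspa8 is lower, and Hspa1b over Hspa1a overlaps.

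Hsp90aa1 encodes the inducible cytosolic Hsp90 and Hsp90ab1 the constitutive one. Hsp90aa1 had 1539 and 1170 CPM in NHD13, against 763 and 1059 CPM in WT (log2 fold change 0.57 ± 0.21, edgeR adjusted p 0.171). DESeq2 called it with an adjusted p of 0.0407. Hsp90ab1 had 4070 and 4008 CPM in NHD13, against 3166 and 3619 CPM in WT (log2 fold change 0.25 ± 0.093, edgeR adjusted p 0.173). Neither gene overlapped between groups, and the gap between NHD13 library 2 and WT library 2 was small for both. Hsp90aa1 had 37.8 and 29.2 percent as many counts as Hsp90ab1 in NHD13 and 24.1 and 29.3 percent in WT, values that overlap. The coding sequences of these 2 genes were 75.6 percent identical. Windows found in other genes made up 53.1 percent of the Hsp90aa1 transcript and 0.736 percent of that of Hsp90ab1.

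Hspa5, the ER gene whose promoter carries the ER stress element, had the smallest difference of the 10. It had 3087 and 2517 CPM in NHD13, against 2220 and 2777 CPM in WT. The groups overlapped, and the log2 fold change was 0.17 ± 0.16 (edgeR adjusted p 0.545). Hspa5 had 40.4 and 38.2 percent as many counts as Hspa8 in NHD13 and 49.7 and 46.3 percent in WT, without overlap. None of its windows of 75 bases occurs in another gene, as was also so for Hsph1 and Dnajb1.

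The mitochondrial chaperonin genes, whose promoter windows overlap, both had higher values in NHD13 without being called by edgeR. Hspd1, which encodes Hsp60, had 676 and 550 CPM in NHD13, against 505 and 491 CPM in WT (log2 fold change 0.30 ± 0.12, edgeR adjusted p 0.202). Hspe1, which encodes the lid Hsp10, had 319 and 219 CPM in NHD13, against 141 and 191 CPM in WT (log2 fold change 0.70 ± 0.24, edgeR adjusted p 0.151, or 0.0229 by DESeq2). In both genes NHD13 library 1 was the highest and NHD13 library 2 lay nearer to WT. Hspe1 had 47.2 and 39.8 percent as many counts as Hspd1 in NHD13 and 27.9 and 38.9 percent in WT, which leaves NHD13 library 2 and WT library 2 close together. Windows found in other genes made up 33.7 percent of the Hspd1 transcript and 29.1 percent of that of Hspe1.

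**Figure D4:**
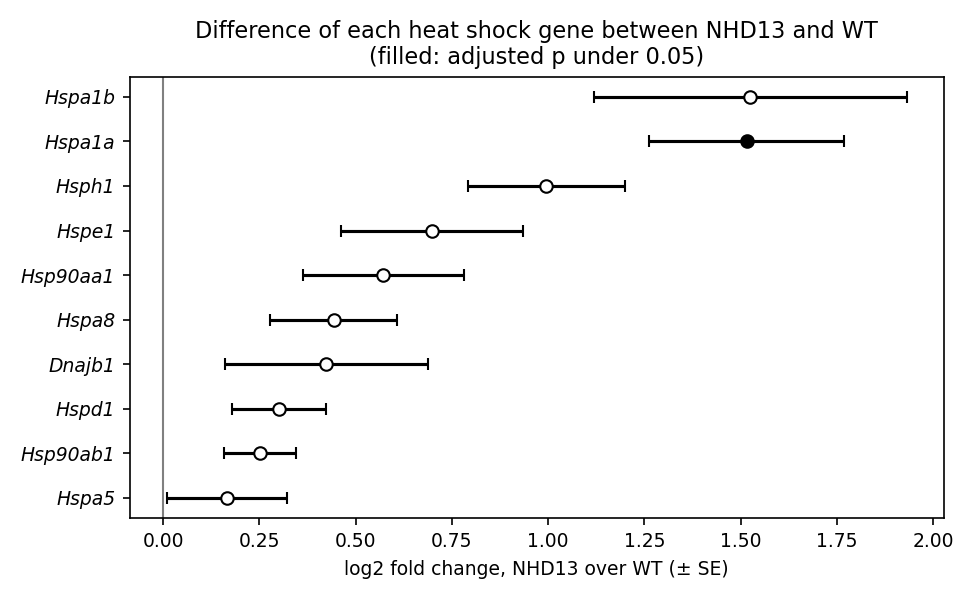
Log2 fold change of NHD13 over WT for each gene with its SE, sorted by size, from Hspa1b (1.53) at the top to Hspa5 (0.17) at the bottom. The filled point, Hspa1a, is the gene with an edgeR adjusted p under 0.05.

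The libraries within a group were not alike in these genes. Of the 10, 9 were lowest in WT library 1, with Hspd1 lowest in WT library 2, and 9 were highest in NHD13 library 1, with Hspa1a highest in NHD13 library 2. WT library 2 was above WT library 1 in 9 of 10, against 49.4 percent of all genes tested, and NHD13 library 1 was above NHD13 library 2 in 9 of 10, against 47.8 percent. Without WT library 1 the median log2 fold change of the 10 was 0.33, and without WT library 2 it was 0.85. It was 0.39 without NHD13 library 1 and 0.66 without NHD13 library 2. The neutrophil markers stood high in NHD13 library 1 and the sum of the T and NK cell markers in NHD13 library 2, as given above. Of the stroma markers, Sparc and Col1a1 stood high in WT library 1.

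Levels were compared between genes as CPM per kilobase of the matching GENCODE M21 transcript. The order depends on how reads shared with other genes were counted, which is not given. Windows found in other genes made up 68.6 percent of the Hspa8 transcript, 61.7 percent of Hspa1a and 55.8 percent of Hspa1b. In NHD13 the order ran from Hspa8 at 2971 ± 311 (SD, n = 2) through Hsp90ab1 at 1603 ± 17.2, Hspa5 at 1072 ± 154 and Dnajb1 at 603 ± 2.08 to Hsp90aa1 at 413 ± 79.6. Below these came Hspe1 at 348 ± 91.5, Hspa1a at 294 ± 37.9 and Hspd1 at 253 ± 36.7, and last Hsph1 at 62.3 ± 3.16 and Hspa1b at 28.5 ± 4.91. The neighbours Hsp90aa1 and Hspe1, Hspe1 and Hspa1a, and Hspa1a and Hspd1 overlapped in their library values in NHD13. The order in WT was the same except that Hspa1a, at 103 ± 34.3, lay below Hspd1, at 205 ± 4.08, without overlap, while the values of Hspe1 overlapped those of Hsp90aa1 and of Hspd1.

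Other chaperone genes were read from lists by their role. The background for every list is the share of all genes tested. By edgeR 4.28 percent were called, 2.07 percent higher and 2.22 percent lower. At an unadjusted p under 0.05 in edgeR, 12.9 percent were higher and 13.9 percent lower. DESeq2 called 2604 of the 14853 genes, a number not split by direction here. For limma-voom the number called among all genes is not given, so its counts below have no share beside them. Among the heat shock factors and their regulators edgeR called 0 of 5 tested genes, none of them at an unadjusted p under 0.05. DESeq2 and limma-voom also called 0. Hsf4 had a log2 fold change of -1.53 ± 0.63 at under 2 CPM in every library, and Hsbp1, a small protein that binds Hsf1, had -0.19 ± 0.085. Hsf1 itself, chosen after its values were seen, had 75.4 and 80.0 CPM in NHD13, against 72.8 and 65.4 CPM in WT (0.17 ± 0.10, edgeR adjusted p 0.357).

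The small heat shock proteins, which hold unfolded proteins without ATP, changed in both directions. Of 6 tested genes Hspb1 rose and Hspb8 fell. Hspb1 had 67.6 and 42.1 CPM in NHD13, against 15.4 and 17.5 CPM in WT (log2 fold change 1.74 ± 0.26, edgeR adjusted p 0.0408). Hspb8 had 2.33 and 4.02 CPM in NHD13, against 17.4 and 13.3 CPM in WT (-2.27 ± 0.35, edgeR adjusted p 0.0430). In neither gene did the groups overlap, and each call was lost in 6 of 15 alternatives. The median of the 6 was -0.70, and it was -0.17 without WT library 1 and -1.11 without NHD13 library 1.

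Of the other Hsp70 and Hsp110 genes, edgeR called 0 of 9 tested, and 1 had an unadjusted p under 0.05. None was called by the other tools, DESeq2 and limma-voom, and the median was 0.058. The smallest p was that of Hyou1, an Hsp110 of the ER (0.43 ± 0.13). Of the other J proteins edgeR called 1 of 40, Dnajc6, with a median of -0.049. Dnajc6 encodes auxilin, which recruits Hsc70 to strip clathrin from vesicles, and had 26.2 and 24.9 CPM in NHD13, against 10.6 and 12.1 CPM in WT (1.17 ± 0.15, edgeR adjusted p 0.0334, lost in 5 of 15 alternatives). DESeq2 called 3 J proteins higher and 3 lower, beside 2604 of all 14853 genes in either direction.

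Among the Hsp90 paralogs and cochaperones 0 of 23 were called by edgeR, while 5, all higher, had an unadjusted p under 0.05. Of all genes 12.9 percent were higher at that p. By DESeq2 1 was called, by limma-voom 0. Their median was 0.10. Fnip2, a cochaperone of Hsp90, had 0.91 ± 0.21, and Chordc1 had 0.42 ± 0.15. Among the exchange factors of Hsp70 0 of 10 were called by edgeR, 1 had an unadjusted p under 0.05, and DESeq2 and limma-voom called 0. Sil1, of the ER, had -0.26 ± 0.095 and Bag6 had 0.28 ± 0.13, and the median of the list was 0.054.

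The subunits of the cytosolic chaperonin CCT and of prefoldin, which works with it on actin and tubulin, had a median of 0.088. Of these 15, 1 was called. The prefoldin gene Pfdn5 fell, with 219 and 222 CPM in NHD13, against 309.7 and 326 CPM in WT (-0.53 ± 0.084, edgeR adjusted p 0.0458, lost in 7 of 15 alternatives). Of 16 genes of mitochondrial protein quality control edgeR called 0, although 2 had an unadjusted p under 0.05. By DESeq2 1 was called, by limma-voom 0. One of these 2, Lonp2, encodes the Lon protease of peroxisomes although it was listed here, and had -0.45 ± 0.12. The mitochondrial Lon gene, Lonp1, had 0.059 ± 0.14. Spg7 had 0.49 ± 0.18, and the median of the list was -0.046.

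ER chaperones besides Hspa5 had a median of 0.31, and edgeR called 0 of 22. At an unadjusted p under 0.05 there were 13, of which 10 were higher and 3 lower, against 12.9 and 13.9 percent of all genes. DESeq2 called 5 higher and 2 lower, beside 2604 of all 14853 genes in either direction, and limma-voom called 0. Sdf2l1, an ER stress gene, had 71.7 and 39.8 CPM in NHD13, against 18.003 and 19.9 CPM in WT (1.55 ± 0.30, edgeR adjusted p 0.0625). Dnajb9, a J protein of BiP, had -0.60 ± 0.11 (edgeR adjusted p 0.0578). Among 18 regulators and targets of the unfolded protein response edgeR called 1, Edem1, which sends misfolded glycoproteins to degradation. It rose, at 32.8 and 44.7 CPM in NHD13, against 17.96 and 17.2 CPM in WT (1.14 ± 0.19, edgeR adjusted p 0.0478, lost in 8 of 15 alternatives), and the median of that list was -0.050. DESeq2 called 2 of the 18 higher and 3 lower, and limma-voom 0 higher and 1 lower. Trib3, a pseudokinase gene induced by ER stress, was chosen after its values were seen because its difference was the largest of the list. It had 6.78 and 15.0 CPM in NHD13, against 53.2 and 51.3 CPM in WT (-2.26 ± 0.39, edgeR adjusted p 0.0509). Ppp1r15a, which encodes a phosphatase subunit that restores translation and was also chosen after its values were seen, had -0.63 ± 0.13 (edgeR adjusted p 0.0630).

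**Figure D5:**
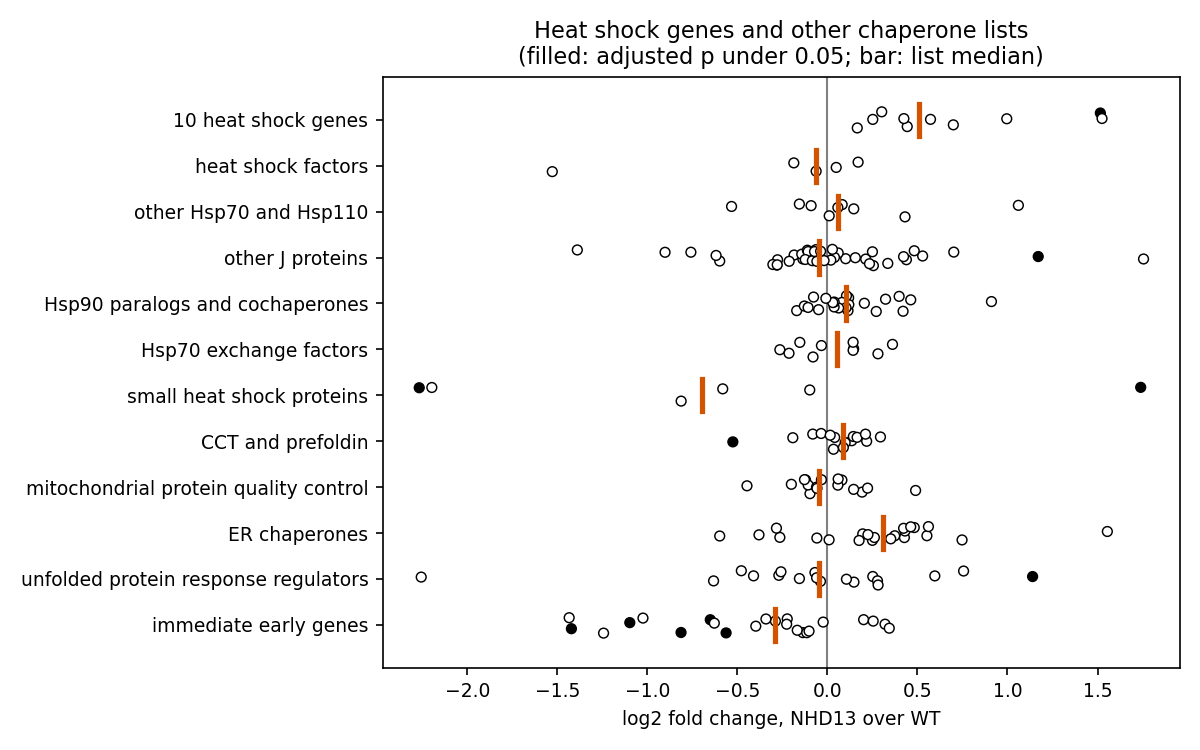
Log2 fold change of NHD13 over WT for every tested gene of each list (points, filled where the edgeR adjusted p is under 0.05) with the list median (orange bar), and vertical jitter without meaning. The 10 heat shock genes all lie above 0 with a median of 0.51, and the medians of the other lists lie between -0.70 for the small heat shock proteins (-0.17 without WT library 1) and 0.31 for the ER chaperones.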

How the data were processed

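Per the labels' protocols, Trizol RNA went into SMARTer Ultra Low libraries and paired-end HiSeq runs. The submitters' processing notes name Bowtie 0.12.2 and mm9. What counted the reads, whether strand was used, and the fate of multiply aligned reads were not given in the sources used here. The authors deposited whole-number counts for 33018 RefSeq transcripts per library, without normalisation. Each symbol was represented by its transcript with the highest total, since transcripts of a gene share reads. The 2 Hspa5 transcripts had almost the same counts.

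The test was that of edgeR 4.0.16 in R 4.3.3, NHD13 against WT over the 4 libraries, with its default filter, TMM scaling, a robust quasi-likelihood fit and Benjamini-Hochberg adjustment. CPM use TMM-normalised totals. Each SE was obtained as |log2 fold change|/√F. DESeq2 1.42.0 and limma-voom 3.58.1 were alternatives, beside other scalings and filters, a non-robust fit, summed transcripts, a threshold of 0.1, a block for the replicate number, and fits that omit 1 library.

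The 10 genes and the lists were chosen with earlier results of these data known. Named genes are all 10, and of each list up to 4 called genes with the smallest p, or the 2 with the smallest p where none was called. Promoters are from RefSeq (GRCm38.p6) and transcripts from GENCODE M21 (GRCm38), matched by symbol or accession. No mm9 coordinates were used. Alignments used Biopython 1.88.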

Additional observations from a re-analysis of the deposited data

How the results depend on the processing

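All 10 log2 fold changes stayed above 0 under the 15 alternatives, which reuse the same libraries. The lowest were 0.0076 for Hspa5 and 0.074 for Dnajb1. The threshold of 0.1 uses the main fit itself, so its fold changes could not differ. The non-robust fit had the main fit's median of 0.51 for the 10 genes. The number of genes called, 636 of 14853, was 1138 without a filter on low counts, 1066 when genes had to reach 1 CPM in each library of either genotype, 2604 with DESeq2, 1923 at an adjusted p under 0.1 and 107 with the replicate number as a block. Leaving out 1 library gave 0 to 990 calls. Omitting either WT library left edgeR with 0 calls, and an unadjusted p under 0.05 in 2332 genes (without WT library 1) and 2605 genes (without WT library 2). It called 270 without NHD13 library 1 and 990 without NHD13 library 2. These fits take their spread from the group that still has 2 libraries.

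Of the 10 genes, 1 was called higher. The count was 5 with DESeq2 (Hspa1a, Hspa1b, Hsph1, Hsp90aa1 and Hspe1) and 2 at an adjusted p under 0.1 (Hspa1a and Hsph1). It was 0 with library totals only, without a filter, with a non-robust fit, with the replicate block and with summed transcripts, and 0 to 0 when a library was left out. For Hspa1a the adjusted p was then 0.0531, 0.0707, 0.0520, 0.0538 and 0.0620. The cause was not tested.

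The main test was planned without taking the labels' numbers as pairs. Deviations of same-numbered libraries from their group means had a weak negative correlation across genes (-0.21). With the numbers crossed as a block, chosen after seeing the data, 3 of the 10 were called (Hsp90aa1, Hsph1 and Hspe1) and 647 of all genes, while Hspa1a was not (adjusted p 0.0717). The lowest count among the 10 genes was 737 (Hspa1b in WT library 1).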

Other observations

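Immediate early genes, which are switched on within minutes by growth factors and by cell handling, were lower where they were called. Of 23 tested, edgeR called 5 lower and 0 higher. The count called lower was 0 with the replicate block, a fit that also called far fewer of all genes, as given above. DESeq2 and limma-voom likewise called 0 higher, and no gene of the list was higher at an unadjusted p under 0.05. The share of all genes called lower was 2.22 percent. The median log2 fold change of the 23 was -0.29. It was -0.31 without WT library 1, -0.37 without WT library 2, -0.39 without NHD13 library 1 and -0.22 without NHD13 library 2. Ier2, which encodes a nuclear protein of the early response, had 416 and 403 CPM in the NHD13 libraries and 573 and 635 CPM in the WT ones (-0.56 ± 0.092, edgeR adjusted p 0.0465, lost in 6 of 15 alternatives). Junb, a member of the AP-1 factors that was chosen after its values were seen, had 175 and 205 CPM in the NHD13 libraries and 305 and 292 CPM in the WT ones (-0.65 ± 0.11, edgeR adjusted p 0.04997). Ier3, Nr4a1 and Egr1 were the other 3 called.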
